A study of Mus musculus with 6 samples.

Results

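The interleukin 17 and 23 axis was followed here through 9 genes, chosen by name from the feature list: the ligands Il17a and Il17f, the receptor chains Il17ra and Il17rc, the interleukin 23 receptor chain Il23r, the interleukin 1 receptor Il1r1, the chemokine receptor Ccr6, and the T cell receptor constant genes Trgc1 (gamma chain) and Trdc (delta chain). They are 9 of 33696 genes counted in each library, with the Ensembl identifiers ENSMUSG00000025929 (Il17a), ENSMUSG00000041872 (Il17f), ENSMUSG00000002897 (Il17ra), ENSMUSG00000030281 (Il17rc), ENSMUSG00000049093 (Il23r), ENSMUSG00000026072 (Il1r1), ENSMUSG00000040899 (Ccr6), ENSMUSG00000076749 (Trgc1) and ENSMUSG00000104876 (Trdc). The study dissociated the genioglossus, the muscle that protrudes the tongue and widens the pharynx, from male mice and sequenced single cells on the 10x Genomics platform. Mice labelled control were compared with a group labelled OSA-4W, collected 4 weeks after modelling of OSA, the usual abbreviation for obstructive sleep apnoea. The labels put all libraries in batch 1 and give neither strain, age nor the way OSA was modelled. Count matrices of 1 control library (control 2) and 3 OSA-4W libraries (OSA-4W 1, 2 and 3) were analysed here, of 6 libraries in the series. The labels do not say which animal or animals each library came from, so p-values here describe library-to-library spread, part of which may be technical.

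Interleukin 17A and 17F are cytokines secreted by type 17 lymphocytes, among them gamma-delta T cells that settle in skin, mucosa, fat and muscle and T helper 17 cells. Interleukin 23 and interleukin 1, made mainly by myeloid cells, act through Il23r and Il1r1 on these lymphocytes and drive them to secrete interleukin 17. The cytokine then binds a receptor of Il17ra and Il17rc on fibroblasts, epithelium, vessels and other stromal cells, which respond with chemokines and acute-phase proteins.

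Many nuclear receptors bind DNA at a core with the letters AGGTCA, among them the product of Rora, a gene of the type 17 list measured here. The promoters shown are those of the cytokine genes of the axis and of its interleukin 23 receptor gene. The 250 bases before each RefSeq start site are printed 5′ to 3′ on the gene's strand, with every AGGTCA, read on either strand, in capitals. Coordinates are of GRCm38.p6, and no coordinate of the deposited files was used. They lie at chr1:20730655-20730904 (plus strand) for Il17a, chr1:20784271-20784520 (minus strand) for Il17f and chr6:67491856-67492105 (minus strand) for Il23r.
Il17a: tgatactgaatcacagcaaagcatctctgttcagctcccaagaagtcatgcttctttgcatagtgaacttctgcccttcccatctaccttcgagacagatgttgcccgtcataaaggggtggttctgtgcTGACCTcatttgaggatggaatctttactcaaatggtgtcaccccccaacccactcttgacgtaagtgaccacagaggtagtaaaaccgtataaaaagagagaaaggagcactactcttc
Il17f: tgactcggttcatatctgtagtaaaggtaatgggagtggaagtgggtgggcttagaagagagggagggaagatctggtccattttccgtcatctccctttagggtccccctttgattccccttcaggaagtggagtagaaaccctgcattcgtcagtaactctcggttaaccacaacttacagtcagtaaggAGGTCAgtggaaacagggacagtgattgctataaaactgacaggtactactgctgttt
Il23r: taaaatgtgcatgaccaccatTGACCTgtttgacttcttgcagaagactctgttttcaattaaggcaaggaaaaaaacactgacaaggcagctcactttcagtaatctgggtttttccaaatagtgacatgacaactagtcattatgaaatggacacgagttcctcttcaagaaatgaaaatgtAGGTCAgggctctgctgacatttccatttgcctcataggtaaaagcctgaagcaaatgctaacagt
The Il17a match lies 120 bases before the start, on the other strand. The Il17f match lies 58 bases before the start on the gene's own strand, and Il23r has 1 match on each strand, 229 and 66 bases before the start. The table held 8 promoters of 6 members, Ccr6 included, and 4 of the 8 held the letters, 1 of the 2 Ccr6 promoters among them. Of all 32851 promoters of the table, 4607 (14.0%) held them. A match of 6 letters describes the sequence and is not evidence of binding. Il17ra, Trgc1 and Trdc had no entry.

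The 4 libraries held between 70217449 and 82184913 unique molecular identifiers (UMIs, each counting 1 captured RNA molecule), with a median of 3889 to 4879 per barcode, and 12231 to 15217 cells per library were kept. Pairs of these libraries shared 52 to 67 barcode sequences, and no pair of matrices matched within sampling noise. Cells were clustered without the 9 genes and named by markers. Levels are given on the counts-per-million scale (CPM), relative to all UMIs of that class in that library. Although the labels call the material skeletal muscle cells, myofibre-like cells numbered 7 in the control and 1, 10 and 2 in OSA-4W 1, 2 and 3, and most kept cells had endothelial, fibroblast or mural markers. OSA-4W 2 stood apart in neutrophil transcripts: in T and NK-like cells, 9 neutrophil markers summed to 587 CPM, against 3.49 CPM in the control and 17.6 and 25.4 CPM in OSA-4W 1 and 3. T and NK-like cells (T cells, natural killer cells and related lymphocytes) numbered 129 in the control (0.974% of kept cells) and 102, 86 and 184 (0.670%, 0.703% and 1.34%) in the OSA-4W libraries.

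In T and NK-like cells, 6 of the 7 axis genes with enough counts for a test were higher after OSA-4W and none was lower. The 6 were Il17a, Il23r, Ccr6, Il1r1, Trgc1 and Trdc, whereas Il17ra did not pass the test. Il17a, Ccr6 and Trgc1 had 0 control UMIs and Il23r had 1, so they had enough counts only through the OSA-4W libraries. For these genes a call in the lower direction was out of reach. The members were also chosen with earlier results of these data known, so the count of 6 of 7 is a description. Over all 7811 genes tested in these cells, 136 passed (1.74%), of which 81 were higher (1.04%) and 55 lower (0.704%). The split over all genes depended on scaling: the higher genes made up 59.6% of the calls with TMM normalization and 73.7% (87 of 118) without it, while the same 6 axis genes passed under both. Calls rest on edgeR's quasi-likelihood test of counts summed per library, at a Benjamini-Hochberg adjusted p of 0.05 over all genes tested in the class. With 1 control the spread comes from the OSA-4W libraries, and the control is assumed to vary like them. An exact permutation test over 4 libraries cannot go below p = 0.25. In such sums, more cells of a type and more RNA per cell cannot be told apart.

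Il17a, the ligand gene, had no UMI in the 129 control T and NK-like cells. It had 12, 25 and 65 UMIs in OSA-4W 1, 2 and 3, which is 26.3, 51.1 and 97.0 CPM. The control lay below all OSA-4W libraries, which themselves spanned a wide range. With called doublets removed, 3 counts were taken as the control's floor (5.24 CPM). Against it, the OSA-4W mean of 58.2 ± 35.9 CPM (SD, n = 3) was at least 11.1-fold higher. The 3 libraries taken singly were at least 5.03, 9.76 and 18.5-fold higher. The adjusted p was 0.0340 by edgeR's quasi-likelihood test. That call was lost in 4 of 11 alternatives: with DESeq2 (adjusted p = 0.0652), with a Leiden resolution of 2 (0.0620), with the axis genes among the variable genes (0.0620) and with called doublets kept in (0.0826). Both changes of clustering gave 130 control and 102, 86 and 185 OSA-4W T and NK-like cells, and the same adjusted p. They are close to a single alternative, and differ little from the main setting's 129 and 102, 86 and 184 cells. Over the 4 libraries the gene had 123 UMIs in 43 barcodes, of which 102 (82.9%) lay in kept T and NK-like cells and 8 in called doublets.

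All 6 Il17a UMIs of the control library lay in a single barcode that Scrublet called a doublet. That barcode held 14196 UMIs and also carried 14 UMIs of Il1r1, 4 of Trdc, 4 of Cd3e (a T cell receptor subunit) and 17 of Scart1 (a scavenger receptor of type 17 gamma-delta T cells), together with 6 of Cdh5 and 3 of Pecam1, both endothelial. With called doublets kept, Il17a was at 8.86 CPM in the control, against 26.3, 48.7 and 82.1 CPM in the OSA-4W libraries, and the groups still did not overlap. The lower bounds on its fold given above do not hold in this setting. Its fitted log2 difference fell from 8.03 to 2.53. In the same setting Il23r was at 2.95 CPM (control) against 60.1, 68.1 and 59.4 CPM, and Trgc1 at 1.48 CPM against 84.5, 64.2 and 39.2 CPM. Il1r1 was then at 48.7 CPM against 146, 156 and 159 CPM, and its log2 difference fell from 2.30 to 1.59.

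Il17f, the second ligand, was too sparse in lymphocytes for a test. T and NK-like cells held 0 UMIs in the control and 1, 2 and 8 UMIs in OSA-4W 1, 2 and 3 (2.19, 4.09 and 11.9 CPM). Only OSA-4W 3 lay above the 5.24 CPM that 3 control counts would give, so no fold is stated. Unlike Il17a, most Il17f UMIs lay outside lymphocytes: 11 of 154 (7.14%) were in T and NK-like cells and 51 in endothelial-like cells. The endothelial level was 0.747 CPM in the control and 1.04, 0.430 and 0.605 CPM in the OSA-4W libraries, and these ranges overlapped (log2 difference 0.00 ± 0.55, SE, adjusted p = 0.999).

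Il23r, the chain that gives the interleukin 23 receptor its specificity, had 1 UMI in control T and NK-like cells and 29, 35 and 46 UMIs in OSA-4W 1, 2 and 3. These are 1.75 CPM and 63.6, 71.6 and 68.7 CPM, with the OSA-4W libraries close to each other and far above the control. The OSA-4W mean was 67.96 ± 4.02 CPM (SD, n = 3). With the OSA-4W libraries pooled, the ratio to the control was 39.0, with a 95% counting interval of 6.86 to 1555. The single control UMI makes that interval wide. The adjusted p was 6.14e-06 with edgeR and 0.0820 with DESeq2. Of 147 Il23r UMIs in all barcodes, 111 (75.5%) were in T and NK-like cells.

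Il1r1, through which interleukin 1 acts on type 17 cells, was at 29.7 CPM in control T and NK-like cells and at 129, 160 and 178 CPM in OSA-4W 1, 2 and 3. The groups did not overlap. The log2 difference was 2.30 ± 0.40 (SE, adjusted p = 5.4e-05), from an OSA-4W mean of 156 ± 24.3 CPM (SD, n = 3). The control value rests on 17 UMIs in 5 cells, and 1 cell carried 11 of them (64.7%). Its call held in all 12 alternatives, with adjusted p-values of up to 0.0133.

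Ccr6, the receptor for the chemokine Ccl20, had 0 UMIs in the control T and NK-like cells and 4, 16 and 18 UMIs in the OSA-4W libraries (8.78, 32.7 and 26.9 CPM). The OSA-4W mean of 22.8 ± 12.5 CPM (SD, n = 3) was at least 4.35-fold above the floor, with an adjusted p of 0.0260. This call depended on single libraries: the adjusted p was 0.308 without OSA-4W 2 and 0.288 without OSA-4W 3. It was 0.109 when the libraries were thinned to equal totals. Only 38 of 84 Ccr6 UMIs (45.2%) lay in T and NK-like cells. B and plasma-like cells, which also carry this receptor, held 10 UMIs in the control and 14, 4 and 0 in OSA-4W 1, 2 and 3 (41.2 CPM and 119, 42.4 and 0 CPM), over 77 and 28, 24 and 16 cells.

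Trdc, the delta chain constant gene that marks gamma-delta T cells and is also transcribed in some NK cells, was at 36.7 CPM in control T and NK-like cells and at 211, 190 and 190 CPM in OSA-4W 1, 2 and 3. The control lay far below a narrow OSA-4W range, with a log2 difference of 2.33 ± 0.37 (SE, adjusted p = 6.19e-06). Trgc1 had 0 UMIs in the control against 44, 33 and 29 UMIs in the OSA-4W libraries (96.6, 67.5 and 43.3 CPM). Its OSA-4W mean of 69.1 ± 26.7 CPM (SD, n = 3) was at least 13.2-fold above the floor (adjusted p = 2.05e-06). Trgc1 shares near-identical sequence with other gamma constant genes, so its counts are uncertain as to which copy they came from. The related Trgc2 had 2 UMIs in the control against 12, 12 and 8 in the OSA-4W libraries, and the more distant Trgc4 had 14 against 6, 22 and 19. Both Trdc and Trgc1 passed in every alternative that gave a value.

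Il17ra, the receptor chain shared by several interleukin 17 cytokines, was at 57.6 CPM in control T and NK-like cells and at 48.3, 81.8 and 52.2 CPM in the OSA-4W libraries. The control lay inside the OSA-4W range (log2 difference -0.02 ± 0.41, SE, adjusted p = 0.997). Its partner chain Il17rc was near the limit of detection there, with 2 UMIs in the control and 2, 1 and 6 in OSA-4W 1, 2 and 3. The ratio was 1.6, with a 95% counting interval of 0.330 to 15.2, and Il17rc was not tested in these cells.

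**Figure D1:**
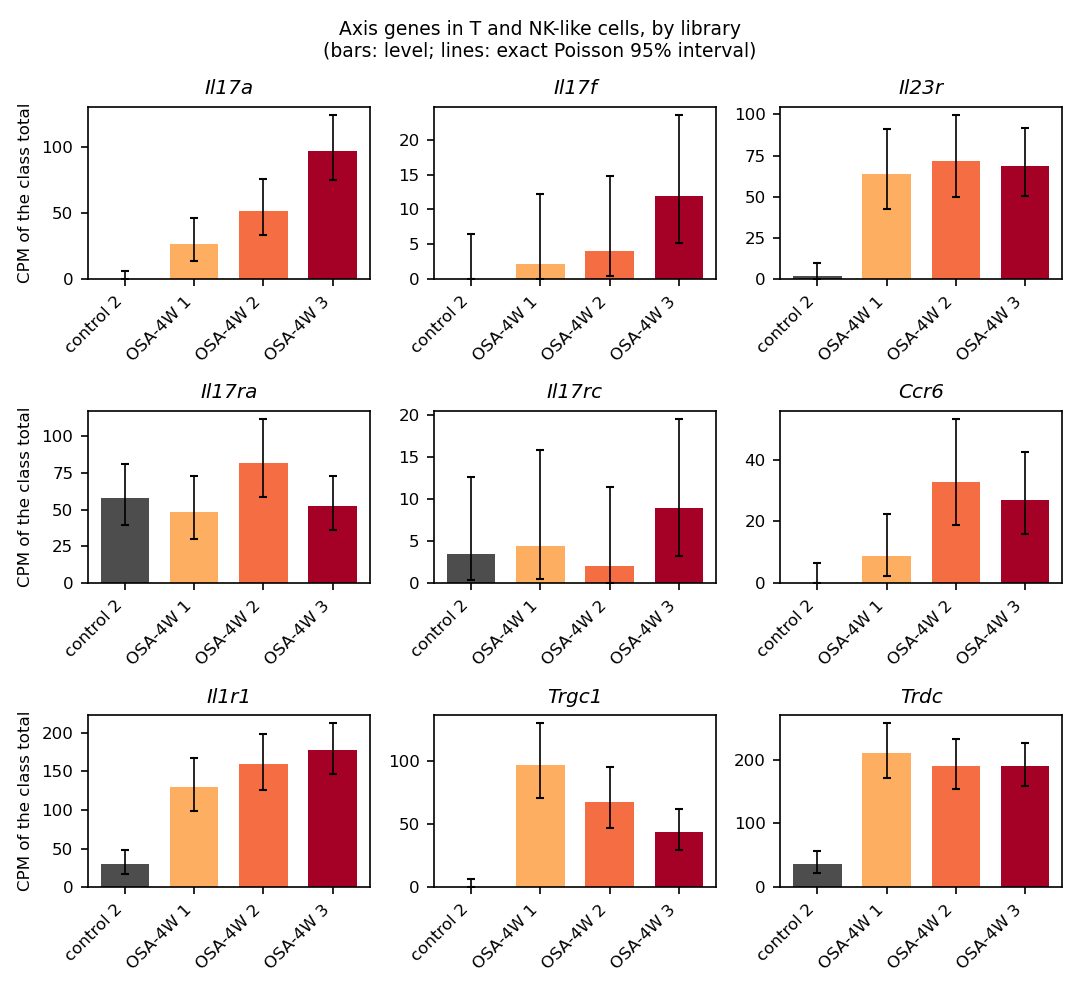
Level of the 9 axis genes in T and NK-like cells, in CPM of the class's UMIs (vertical axis), with 1 bar per library (control 2, then OSA-4W 1, 2 and 3) and lines for exact Poisson 95% intervals, which cover counting error only. Il23r stands at 1.75 in the control and 63.6 to 71.6 in OSA-4W, Trdc at 36.7 against 190 to 211, and the control bar of Il17ra (57.6) lies inside the OSA-4W range.

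The same contrast was read in cells instead of molecules. After each cell was thinned to 1000 UMIs (2 and 10 shallower cells of OSA-4W 1 and 3 left out, none in the other libraries), Il23r was detected in 0% of control T and NK-like cells and in 5.0%, 8.14% and 6.90% of those of OSA-4W 1, 2 and 3. Il17a was found in 0% and in 1.0%, 2.33% and 5.17%, and Trgc1 in 0% and in 6.0%, 8.14% and 6.32%. A count of 0 in 129 control cells allows a share of up to 2.33% of cells with a UMI at this depth, which the Il17a shares of OSA-4W 1 and 2 did not exceed. Il1r1 was found in 0.775% of control cells, against 12.0%, 9.30% and 11.5%, and Trdc in 2.33%, against 16%, 8.14% and 14.4%. The exact two-sided permutation test gave p = 0.25, its smallest possible value, for Il23r, Il1r1, Trgc1 and Trdc, and p = 0.5 for Il17a.

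Unthinned, Il17a was found in 0% of control cells and in 6.86%, 11.6% and 7.61% of OSA-4W cells, and Il23r in 0.775% and in 17.6%, 15.1% and 16.8%. Median depths of these T and NK-like cells were 4056 UMIs in the control and 3919.5, 5213 and 3452.5 in OSA-4W 1, 2 and 3. Endothelial-like cells, which do not make interleukin 17A, were taken as a measure of free RNA in the droplets. They carried Il17a in 0%, 0.016%, 0% and 0% of cells, at median depths of 3196, 3195, 3617.5 and 3012 UMIs. Trdc was found there in at most 0.08% of cells, against 7.75% to 23.4% of T and NK-like cells.

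Most of the lymphocyte genes of the axis lay in a small subset. T and NK-like cells were clustered again, with the 9 genes left out, and 100 of the 501 cells fell in a sub-cluster named type 17-like from 11 markers, with Scart1 and Blk as its leading genes. They numbered 3 in the control (2.33%) and 18, 25 and 54 in OSA-4W 1, 2 and 3 (17.6%, 29.1% and 29.3%), so the OSA-4W libraries all lay above the control (mean 25.4% ± 6.68, SD, n = 3). Axis genes did not define this subset, but some of its markers, Blk and Tmem176b among them, differed between groups, so the shares are a description. Cells of unnamed sub-clusters made up 60.5% of the control's T and NK-like cells and 31.9% ± 8.36 (SD, n = 3) of those of OSA-4W. The largest of these, led by Dapl1 and Ccr7, held 39.5% of control cells and 13.7%, 12.8% and 7.07% of OSA-4W cells. The type 17-like cells held 101 of 102 T and NK-like Il17a UMIs, 99 of 111 Il23r UMIs, 314 of 337 Trdc UMIs, 97 of 106 Trgc1 UMIs and 229 of 273 Il1r1 UMIs. Il17ra was spread more evenly, with 24 of 130 UMIs there.

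Within the type 17-like cells of the OSA-4W libraries, Il23r was at 260, 237 and 240 CPM and Il1r1 at 558, 494 and 549 CPM in OSA-4W 1, 2 and 3. Il17a varied more, at 136, 169 and 371 CPM, and Trgc1 was at 483, 203 and 160 CPM. The 3 control cells of this subset held 15 UMIs of Il1r1, 10 of Trdc, 1 of Il23r and none of Il17a, Trgc1 or Ccr6. With 3 cells the control gives no usable level within the subset, so whether the genes differed per type 17-like cell was not tested.

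Outside the type 17-like cells little remained of the lymphocyte genes. Il17a had 0 UMIs in the control against 1, 0 and 0 in the OSA-4W libraries, and Trgc1 had 0 against 5, 3 and 1. Trdc had 11 UMIs in the control and 6, 0 and 6 in OSA-4W 1, 2 and 3, so its difference was not seen outside the subset. Il1r1 had 2 UMIs there against 14, 5 and 23. Of the 6 called genes, Ccr6 had the largest part elsewhere: 20 of its 38 UMIs were in type 17-like cells, 12 in CD4 T-like and 6 in regulatory T-like cells. CD4 T-like cells also held 28 UMIs of Il1r1, 9 of Il23r and 4 of the 11 Il17f UMIs. Those cells numbered 2 in the control and 11, 1 and 41 in OSA-4W 1, 2 and 3. NK-like cells, whose share was 24.8% in the control and 7.5% ± 0.861 (SD, n = 3) in OSA-4W, held no Il17a, Il23r, Ccr6 or Trgc1 UMI.

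**Figure D2:**
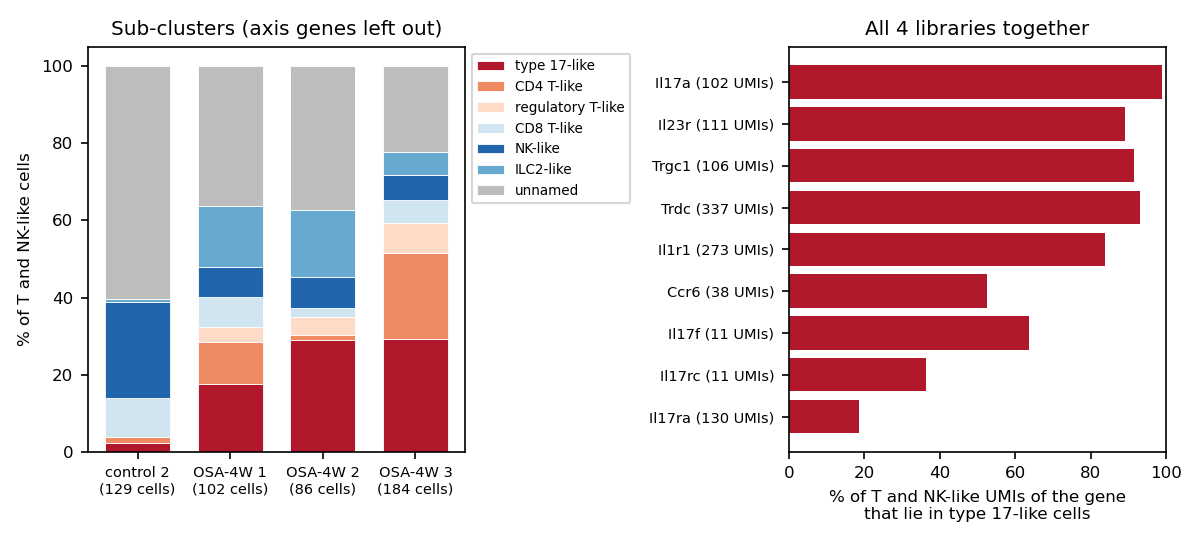
Left, sub-clusters as a percentage of T and NK-like cells in each library, stacked. Right, the percentage of each axis gene's T and NK-like UMIs that lay in type 17-like cells, all 4 libraries together. Type 17-like cells make up 2.33% of the control bar and 17.6% to 29.3% of the OSA-4W bars, and Il17a, Trdc and Trgc1 lie almost wholly in them while Il17ra does not.

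The receptors and T cell receptor genes were found in the same cells as the ligand. Il17a was detected in 31 T and NK-like cells, all of OSA-4W libraries (7, 10 and 14 cells). Of these, 28 also had Il1r1 (90.3%, against 14.0% of the 470 cells without Il17a), 25 had Trdc (80.6% against 14.0%) and 18 had Il23r (58.1% against 9.57%). Of the 31 cells, 30 were type 17-like. Type 17-like cells as a whole, these 30 included, had Il1r1 in 72%, Trdc in 79% and Il23r in 53%. The contrast with the 470 cells is therefore also one between type 17-like cells and other lymphocytes. All 31 had Cd3e and 28 had Scart1, whereas 8 had Trac (the alpha chain constant gene), 1 had Cd4 and none had Cd8a, Foxp3 or Ncr1. The count for Trbc2, the beta chain constant gene, is not given here. The genes named therefore do not by themselves settle whether these 31 cells are gamma-delta or alpha-beta T cells. Counted together, 26 of the 31 had a gamma or delta constant gene and 29 had Il23r or Il1r1. The ligand was unevenly loaded, with up to 6, 7 and 16 Il17a UMIs in a single cell of OSA-4W 1, 2 and 3. The 63 Il23r cells overlapped Il1r1 in 46 and Trdc in 47. Ccr6 marked a partly different set: of its 24 cells 13 had Trac, 8 had Cd4, 8 had Trdc and 3 had Il17a. These are counts of cells pooled over libraries, and absence of a UMI at this depth does not show absence of the transcript.

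**Figure D3:**
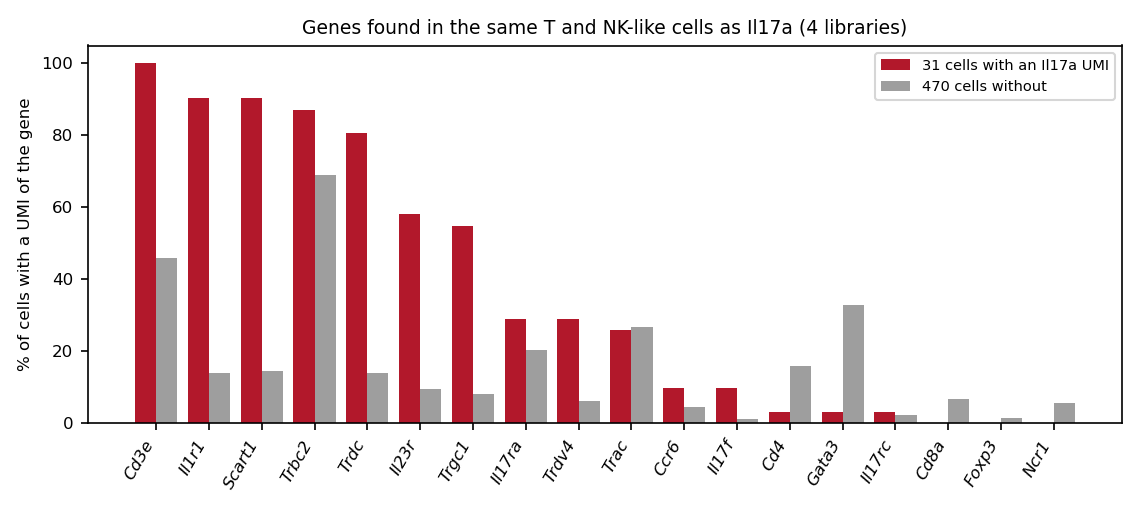
Percentage of T and NK-like cells with at least 1 UMI of each gene on the other axis, for the 31 cells with an Il17a UMI and the 470 cells without one. Il1r1 (90.3% against 14.0%), Trdc (80.6% against 14.0%) and Il23r (58.1% against 9.57%) are far more often found beside Il17a, and Trac is found in similar shares (25.8% against 26.6%). Of the 31 cells, 30 were type 17-like, a subset that had Il1r1 in 72%, Trdc in 79% and Il23r in 53% of its cells.

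Beyond the axis, 24 of a list of 25 type 17 lymphocyte genes could be tested in T and NK-like cells, and 8 were higher after OSA-4W and none lower, where 1.04% of all genes tested were called higher. The list was drawn up with earlier results of these data known, so its count is a description. All 24 had a positive log2 difference, with a median of 1.41 (1.40 with the gene that had no control count at its lower bound), against 0.03 over all genes tested. Scart1 was at 90.8 CPM in the control, against 487, 520 and 516 CPM in OSA-4W 1, 2 and 3 (log2 difference 2.39 ± 0.33, SE). Icos, a co-stimulatory receptor, was at 14.0 CPM against 90.0, 75.7 and 86.6 CPM. The neuropeptide receptor subunit Ramp1 was at 41.9 CPM against 191, 237 and 210 CPM. None of these 3 overlapped between groups. They are among the genes already past the test, so the lack of overlap adds no support of its own.

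The other 5 that rose were Cxcr6 (log2 difference 2.17 ± 0.42, SE), a chemokine receptor of tissue-resident lymphocytes, the kinase gene Blk (2.16 ± 0.42), the adhesion receptor Cd44 (1.42 ± 0.31), the cation channel Tmem176b (1.40 ± 0.31) and Rora (1.09 ± 0.26), which encodes a nuclear receptor. The call of Rora was lost without OSA-4W 2 (adjusted p = 0.147), and those of Cd44 and Icos with DESeq2 (0.081 and 0.087). Zbtb16 (0.91 ± 0.29, adjusted p = 0.097) and Il7r (1.10 ± 0.35, adjusted p = 0.105) did not pass.

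Sub-clusters of T and NK-like cells whose leading genes belonged to another cell type, such as fibroblast or erythroid genes, were left out in an alternative chosen after seeing the data, leaving 102 control cells and 79, 65 and 156 OSA-4W cells. The same 6 axis genes passed, with adjusted p-values of 2.45e-08 for Il17a, 1.63e-07 for Il23r, 0.00553 for Ccr6, 6.33e-06 for Il1r1, 8.15e-09 for Trgc1 and 3.45e-07 for Trdc. Over all genes the calls went from 136 to 352. Log2 differences of the listed genes were also larger there, at 2.29 for Rora, 2.52 for Tmem176b and 2.30 for Cd44. Macrophage markers summed to 38.4 CPM in control T and NK-like cells and to 386, 53.2 and 334 CPM in OSA-4W 1, 2 and 3, with Csf1r, Fcgr1 and Folr2 at 0 in the control. Fibroblast markers, from cells that themselves carry Il1r1 and Il17ra, summed to 354 CPM in the control and 461, 2491 and 842 CPM, with none at 0 in the control. A higher OSA-4W mean than the control was found for 10 of 10 macrophage, 9 of 9 neutrophil and 9 of 10 fibroblast markers, and their part in the lymphocyte calls was not tested.

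Of 12 other T cell receptor genes tested, 0 passed (median log2 difference 0.20). Cd3e, for example, was at 249.7 CPM in the control, against 323, 235 and 378 CPM in OSA-4W 1, 2 and 3, so the general T cell gene stayed inside the OSA-4W range while Trdc and Trgc1 did not. The gamma-delta variable gene Trdv4 had 0 UMIs in the control against 42, 44 and 9 in the OSA-4W libraries, and Trgv6 had 0 against 7, 9 and 5. Pathway genes upstream of the axis were mostly sparse in these cells. Il12rb1, the second chain of the interleukin 23 receptor, had 1 UMI in the control against 8, 6 and 19 in the OSA-4W libraries. Il17re, the receptor chain for interleukin 17C, had 0 against 10, 9 and 14. Of 8 family and partner genes tested in T and NK-like cells, 0 passed, with a median log2 difference of 1.41. The interleukin 12 receptor chain Il12rb2 went the other way, at 138 CPM against 63.6, 81.8 and 64.2 CPM (-1.07 ± 0.34, SE, adjusted p = 0.091).

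The receptors of the axis were measured in 9 further cell classes, where no member passed the test under the main fit or any alternative. The background in the same fits was 0% of 15966 genes in endothelial-like cells, 0% of 16796 in fibroblast-like cells, 0.0402% in lymphatic endothelial-like cells, 1.33% in macrophage-like cells, 0.069% in mural-like cells, 0% of 6011 in neutrophil-like cells, 0.0818% in satellite-like cells, 0.166% in Schwann-like cells and 0.0785% in tenocyte-like cells. In the 3 classes without an edgeR call, the unadjusted p was under 0.05 for 811 endothelial, 679 fibroblast and 365 neutrophil genes. DESeq2 calls in these classes numbered 33, 36 and 0. A count of 0 members is to be read against these shares.

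Among the 10 tested classes, Il17ra was at its highest in neutrophil-like cells (mean over the 4 libraries 208.9 ± 70.8 CPM, SD) and satellite-like cells (158.7 ± 35.9 CPM), the muscle stem cells, which overlapped. Fibroblast-like cells followed at 114.5 ± 14.3 CPM, with all libraries below the lowest satellite library. Lymphatic endothelial-like, macrophage-like and T and NK-like cells had 70.5 ± 21.0, 64.8 ± 19.4 and 59.99 ± 15.1 CPM, overlapping each other and all below fibroblast-like cells. Blood endothelial-like cells, at 12.3 ± 1.48 CPM, and mural-like cells, at 17.2 ± 2.79 CPM, were among the lowest.

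The order of Il17rc was different. Satellite-like (38.6 ± 10.9 CPM), tenocyte-like (27.8 ± 5.04 CPM), fibroblast-like (27.0 ± 5.48 CPM), lymphatic (22.98 ± 6.58 CPM) and mural-like cells (21.3 ± 4.0 CPM) overlapped each other, with endothelial-like cells at 14.9 ± 2.94 CPM. T and NK-like (4.72 CPM) and macrophage-like cells (2.44 CPM) lay below all of these. Neutrophil-like cells held 3 Il17rc UMIs in all, none of them in the control, whose floor of 40.5 CPM is above every other class mean given here. Cells with a UMI of both chains made up 7.32% of control and 7.73%, 10.0% and 9.80% of OSA-4W fibroblast-like cells, at median depths of 7766 and 7494.5, 8111 and 7274 UMIs. They made up 11.4% of control and 8.78%, 11.0% and 9.63% of OSA-4W satellite-like cells, and 0.201% to 0.312% of endothelial-like cells.

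The control lay inside the OSA-4W range in 5 of 10 classes for Il17ra, 4 of 10 for Il17rc and 4 of 10 for Il1r1. A control that varied like the 3 OSA-4W libraries would fall inside their range about as often as outside it. These counts are therefore a description. Outside T and NK-like cells, Il17ra came nearest to a call in macrophage-like cells, at 38.5 CPM in the control and 70.1, 85.1 and 65.4 CPM in OSA-4W 1, 2 and 3. These groups did not overlap, yet the adjusted p was 0.149 (log2 difference 0.99 ± 0.32, SE). In fibroblast-like cells Il17ra was at 104 CPM against 132, 121 and 101 CPM (0.22 ± 0.24, SE), with the control inside the OSA-4W range. In satellite-like cells it was at 133 CPM against 135, 210.3 and 156 CPM (0.34 ± 0.26, SE).

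For Il17rc, satellite-like cells had 51.8 CPM in the control and 25.4, 36.8 and 40.5 CPM in the OSA-4W libraries, the only stromal class in which the control was above all 3 (-0.59 ± 0.31, SE, adjusted p = 0.810). Endothelial-like cells had 12.4 CPM against 14.6, 13.5 and 19.1 CPM (0.40 ± 0.27, SE). In fibroblast-like cells the values were 25.6 CPM against 21.1, 27.2 and 34.3 CPM (0.18 ± 0.32, SE). None of these differences passed the test.

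Il1r1 in T and NK-like cells was above every other tested class in the OSA-4W libraries, whereas in the control it was at 29.7 CPM, below fibroblast-like (74.4 CPM), mural-like (46.4 CPM) and endothelial-like cells (44.2 CPM). Fibroblast-like cells (mean over the 4 libraries 85.1 ± 19.3 CPM, SD) lay above mural-like (45.96 ± 5.22 CPM) and endothelial-like cells (39.1 ± 5.91 CPM) in every library. In endothelial-like cells it was at 44.2 CPM in the control, against 43.6, 37.2 and 31.6 CPM in OSA-4W 1, 2 and 3 (log2 difference -0.18 ± 0.18, SE, adjusted p = 0.962). The control was the highest of the 4, and the difference did not pass. In fibroblast-like cells the values were 74.4 CPM against 104, 98.5 and 63.5 CPM, overlapping.

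Within classes, Il1r1 varied more between clusters than between groups. An endothelial cluster led by Selp and Plvap, both found on venules, had 128 CPM in the control and 142, 127 and 114 CPM in the OSA-4W libraries. A cluster led by Nebl, Scgb3a1 and Edn1 had 21.1 CPM against 17.1, 14.7 and 8.9 CPM. Among mural-like cells the cluster led by the smooth muscle genes Actg2 and Cnn1 had 160 CPM against 134, 124 and 85.4 CPM, while that led by the pericyte genes Higd1b, Rgs5 and Kcnj8 had 36.8 CPM against 33.6, 34.8 and 29.1 CPM. A fibroblast cluster led by Saa3, Sfrp2 and Ccn5 held 95, 30 and 924 cells of OSA-4W 1, 2 and 3 and 0 of the control, with Il1r1 at 159, 159 and 56.2 CPM and Il17ra at 108, 52.3 and 61.4 CPM. These clusters were drawn from the same cells, so the differences between them are a description.

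**Figure D4:**
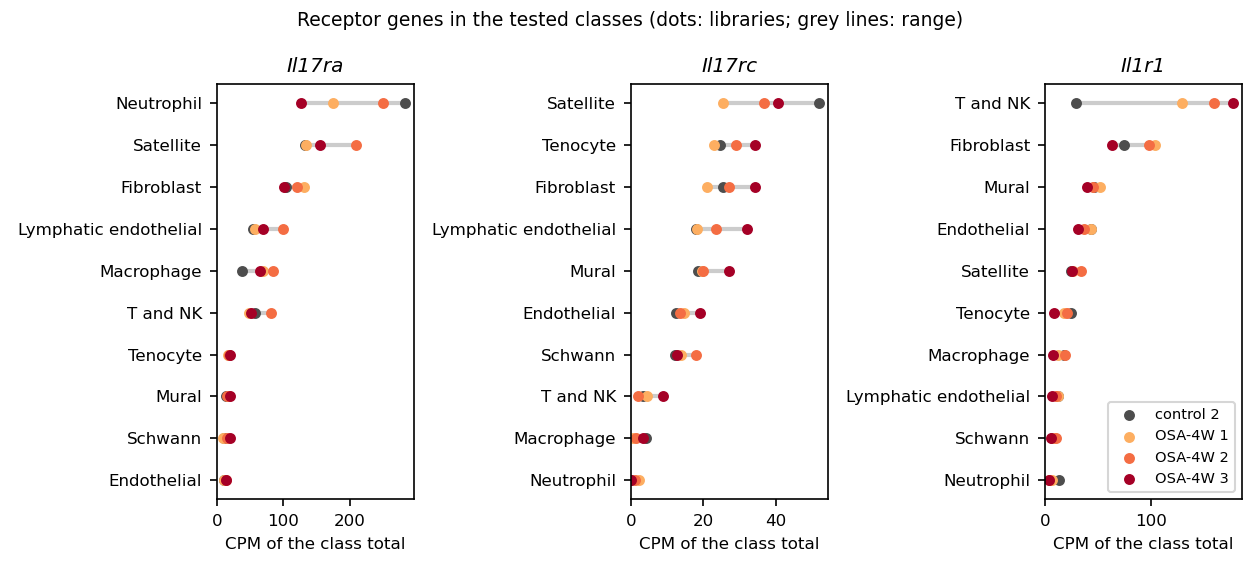
Level of Il17ra, Il17rc and Il1r1 in the 10 tested cell classes, in CPM of the class's UMIs, with 1 dot per library (control 2 and OSA-4W 1, 2 and 3). The control dot lies inside the OSA-4W range in 5 classes for Il17ra and in 4 each for Il17rc and Il1r1. A control that varied like the OSA-4W libraries would lie inside about as often as outside. Il17ra is highest in neutrophil-like and satellite-like cells (means 208.9 and 158.7). The control dot for Il1r1 in T and NK-like cells (29.7) lies below the OSA-4W dots.

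The pathway downstream of the receptor was followed through 18 adaptors and signal transducers and 30 known target genes of interleukin 17. Nfkbiz, Zc3h12a, Tnfaip3, Cebpb and Cebpd are in both lists, so the tests of the lists overlap. Over 10 classes, 173 tests of the adaptors gave 0 calls, with class medians of the log2 difference between -0.24 and 0.25. Of 217 tests of target genes, 5 were called higher and none lower. They were Cxcl1 and Saa3 in macrophage-like cells (2 of 23 tested, where 1.33% of all genes were called), Cxcl2 and Timp1 in Schwann-like cells (2 of 20, against 0.166%) and Cxcl2 in T and NK-like cells (1 of 19, against 1.74%).

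Saa3, an acute-phase protein, had 2 UMIs in control macrophage-like cells (1.37 CPM) and was at 291, 237 and 350 CPM in OSA-4W 1, 2 and 3. The ratio was 234, with a 95% counting interval of 64.8 to 1934. Fitted log2 differences of Saa3 were positive in all 10 classes (3.01 to 8.76), and macrophage-like cells were the class in which it passed. The highest value, 8.76 ± 4.70 (SE, adjusted p = 0.763, edgeR), was in neutrophil-like cells. It rests on 42 control cells and is not read as a fold. The neutrophil-attracting chemokine Cxcl1 was at 103 CPM against 247, 334 and 309 CPM in these cells (1.6 ± 0.36, SE, adjusted p = 0.0465), a call lost without TMM (0.069) and without OSA-4W 1 (0.131). Neutrophil markers in macrophage-like cells summed to 44.0 CPM in the control and 82.4, 777 and 112 CPM in OSA-4W 1, 2 and 3, with S100a8, Mmp8, Ngp, Camp and Ltf at 0 in the control. Fibroblast markers there summed to 327 CPM against 555, 675 and 787 CPM, with 10 of 10 higher on average and none at 0 in the control. The part of these cells' RNA in the calls was not tested.

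Cxcl2, another neutrophil-attracting chemokine, was at 73.3 CPM in control T and NK-like cells and at 494, 350 and 242 CPM in the OSA-4W libraries (2.20 ± 0.36, SE). Without the sub-clusters led by other cell types the log2 difference of Cxcl2 there was 4.61. In Schwann-like cells it was at 11.2 CPM against 34.6, 51.9 and 73.1 CPM (2.22 ± 0.33, SE). Cxcl2 was at 2067 CPM in control macrophage-like cells and 16065 CPM in control neutrophil-like cells. Macrophage markers summed to 48.1 CPM in control Schwann-like cells and 66.9, 76.2 and 196 CPM in OSA-4W 1, 2 and 3, and neutrophil markers to 5.74 CPM against 32.5, 880.2 and 40.3 CPM. The part of these cells' RNA in the Schwann and lymphocyte values was not tested. Timp1 in Schwann-like cells was at 5.74 CPM against 16.5, 14.7 and 41.7 CPM (2.02 ± 0.41, SE, adjusted p = 0.0013), a call lost without OSA-4W 3 (0.158) and without TMM (0.447).

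No target gene passed in the other 7 classes. Fibroblast-like cells had 28 tested targets with 15 positive log2 differences and a median of 0.14, against 0.02 over all genes. Satellite-like cells had 22 with 8 positive and a median of -0.36, against 0.03. Endothelial-like cells had 17 positive of 23, with a median of 0.47 against 0.01. Neutrophil-like cells had 16 positive of 19, with a median of 0.84 against 0.29 (0.63 against 0.01 with genes without control counts at their bound). Tenocyte-like cells had 12 positive of 23 and a median of 0.02, the same as over all genes.

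**Figure D5:**
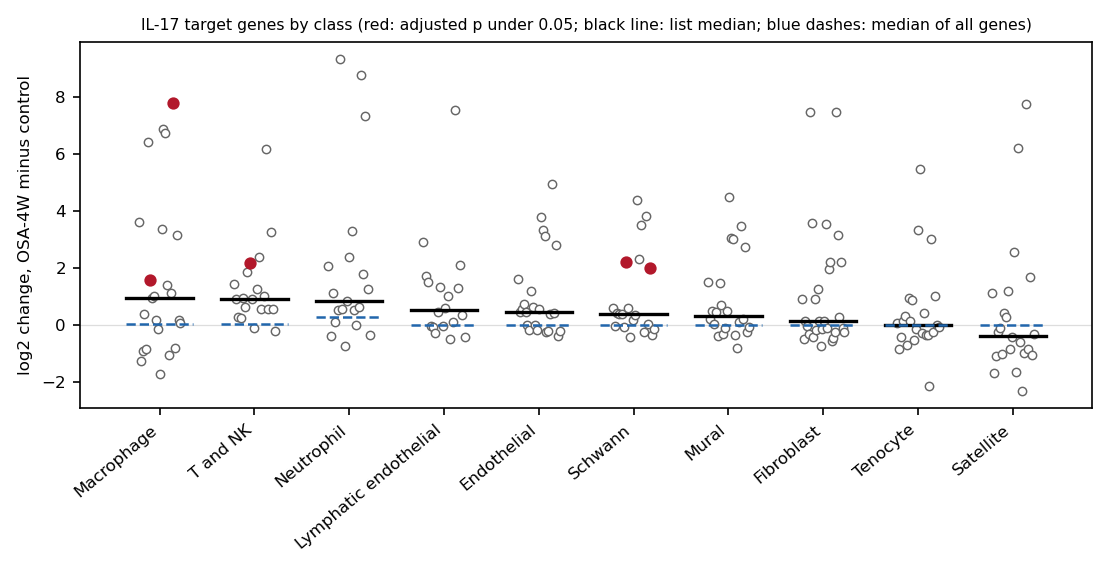
Log2 difference (OSA-4W minus control, edgeR) of each tested interleukin 17 target gene in each cell class, with genes at an adjusted p under 0.05 in red, the list's median as a black mark and the median over all genes tested as a blue mark. Values of genes without control counts depend on the fit's prior count and are no bound. The 5 red points are Cxcl1 and Saa3 in macrophage-like, Cxcl2 and Timp1 in Schwann-like and Cxcl2 in T and NK-like cells. The medians of fitted values run from -0.36 in satellite-like to 0.95 in macrophage-like cells. With genes without control counts at their bound, the macrophage-like median was 0.40, below the 0.93 of T and NK-like cells.

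Among the cytokines that act upstream of the lymphocyte receptors, Il1rn and Il1b gave the only 2 calls in 87 tests of family and partner genes. They fell in macrophage-like and mural-like cells, where 1.33% and 0.069% of all genes were called. Il1rn, which encodes the interleukin 1 receptor antagonist that competes for Il1r1, was at 50.2 CPM in control macrophage-like cells and at 152, 128 and 140 CPM in OSA-4W 1, 2 and 3 (1.55 ± 0.33, SE, adjusted p = 0.0417). This call was lost without TMM (0.067) and without OSA-4W 1 (0.140), and the neutrophil and fibroblast marker sums given above for macrophage-like cells apply to it too. Il1b, a ligand of Il1r1, was at 1.18 CPM in control mural-like cells and 6.51, 5.86 and 8.11 CPM in the OSA-4W libraries (2.56 ± 0.43, SE, adjusted p = 0.0436), lost without TMM (0.059) and with libraries thinned to equal totals (0.064). Macrophage markers in mural-like cells summed to 89.2 CPM in the control against 121, 111 and 219 CPM, and neutrophil markers to 4.81 CPM against 35.7, 647 and 35.1 CPM. The part of these cells' RNA in the Il1b value was not tested.

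Most Il1b UMIs of the named classes (53.9%) lay in neutrophil-like cells, at 9927 CPM in the control and 7226, 1641 and 6725 CPM in OSA-4W 1, 2 and 3. Macrophage-like cells had 87.3 CPM against 303, 213 and 209 CPM, without overlap but short of the threshold (1.53 ± 0.36, SE, adjusted p = 0.0566). Il23a, the interleukin 23 subunit, was at 0 CPM in the 42 control neutrophil-like cells and at 20.8, 8.10 and 46.3 CPM in the OSA-4W libraries (9, 13 and 23 UMIs). The floor for those few control cells is 40.5 CPM, so no fold is stated. Its shared subunit gene Il12b lay mostly in dendritic-like cells (90.1% of UMIs in named classes), at 0 CPM in the 13 control cells and at 173, 306 and 29.3 CPM in the OSA-4W libraries.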

How the data were processed

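Single-cell libraries were made with the 10x Genomics platform, per the labels' protocols. The authors deposited raw UMI counts per gene and barcode, unnormalized, made with Cell Ranger 9.0.1 per the file headers, and the builds GRCm39 and mm39 are named per the submitters' processing notes. Matrices of 1 control and 3 OSA-4W libraries were used, and control replicates 1 and 3 were not analysed here.

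Cells with at least 300 genes and 500 UMIs and at most 20% mitochondrial UMIs were kept. Scrublet (expected rate 0.1) called 356 to 551 doublets per library, which were removed. Cells were clustered in scanpy 1.11.5 (2000 variable genes without the axis genes, 30 principal components, 15 neighbours, Leiden resolution 1). A cluster was named from at least 3 markers of a list. The naming rule was set after seeing the clusters, and names rebuilt this way may differ from the study's. T and NK-like cells were clustered again with 1000 variable genes and 15 components, and sub-clusters led by markers of another cell type stayed unnamed.

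Counts were summed per library and class, for classes with at least 30 cells in every library, filtered with filterByExpr and tested in edgeR 4.0.16 (quasi-likelihood, TMM, Benjamini-Hochberg over all genes of the class, threshold 0.05), after the code was tested on simulated data. DESeq2 1.42.0, no TMM, other filters, thinned libraries, leaving out each OSA-4W library, kept doublets, Leiden resolution 2 and clustering with the axis genes were alternatives. Another, without sub-clusters led by other cell types, was chosen after seeing the data. Shares of cells were taken after thinning to 1000 UMIs, in a single random draw per setting. The SE of an edgeR log2 difference was back-calculated, as its absolute value divided by the square root of the test's F statistic. It therefore adds nothing to the test result. A gene at 0 in the control was compared with a floor of 3 counts in that library. Intervals and floors are at 95% or for 3 counts and cover counting error only. The 9 members were all named. From the lists, genes past the threshold and up to 4 others of the highest mean level were to be named, and further genes (Trgc2, Trgc4, Trdv4, Trgv6, Il12rb1, Il17re, Il23a and Il12b) were chosen after their values were seen. A single gene of the type 17 list is not reported here. The members and lists were chosen with earlier results of these data known. Promoter sequences are from RefSeq (GRCm38.p6). Figures and statistics used Python 3.11.15 and R 4.3.3.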

Additional observations from a re-analysis of the deposited data

How the results depend on the processing

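No paired analysis was possible because only 1 control library was analysed here, so the groups share fewer than 2 replicate numbers. Of the 6 axis genes called in T and NK-like cells, DESeq2 called 3 (Il1r1, Trgc1 and Trdc) and a filter of at least 10 counts in every library 2 (Il1r1 and Trdc), a filter under which Il17a, Il23r, Ccr6 and Trgc1 could not be tested. Values of axis genes kept their direction and side of the threshold in 66 comparisons with an alternative in T and NK-like cells, where 8 lost the call and 5 changed sign, and in 265 in other classes, where 13 changed sign. No called value changed sign. The sign changes were in log2 differences that passed no test: Il17f in endothelial-like cells (0.002; -0.040 without TMM, -0.010 with all genes of at least 1 count, -0.061 with thinned libraries, -0.087 at Leiden resolution 2, -0.047 with axis genes among the variable genes and -0.447 to 0.246 with a library left out), Il17ra in T and NK-like cells (-0.016; 0.076 without TMM, 0.0066 at Leiden resolution 2 and with axis genes among the variable genes, -0.255 to 0.112 with a library left out), Il17ra in tenocyte-like cells (0.112; -0.00071 thinned, -0.095 with doublets kept), Il17rc in fibroblast-like cells (0.176; -0.085 to 0.364 with a library left out), Il1r1 in mural-like cells (0.020; -0.016 without TMM, -0.010 thinned, -0.052 to 0.079 with a library left out) and Il1r1 in Schwann-like cells (0.254; -0.204 thinned). The 5 calls of interleukin 17 target genes became 3 without TMM, 25 with all genes of at least 1 count and 3 with at least 10 counts, and 19 to 45 when an OSA-4W library was left out. The cause was not tested. Thinned shares of cells rest on a single random draw per setting, so they can move between settings through the draw alone. The OSA-4W minus control share of T and NK-like cells moved with thinning, in percentage points: Il17a from 2.83 to 8.70 unthinned and 5.87 at 2000 UMIs, Il17f from 0.579 to 2.01 unthinned, Il23r from 6.68 to 15.8 and 8.86, Ccr6 from 0.967 to 6.29 and 3.51 (2.30 at a Leiden resolution of 2), Il1r1 from 10.2 to 20.9 and 14.9 (8.38 with doublets kept), and Trgc1 from 6.82 to 16.2 and 10.95. Counts over all genes varied more: 136 in T and NK-like cells (34 to 352 over the alternatives, 109 to 292 with a library left out), 161 in macrophage-like (95 to 788, 64 to 1271), 0 in endothelial-like (0 to 142, 84 to 334), 0 in fibroblast-like (0 to 148, 9 to 227), 4 in lymphatic (0 to 35, 15 to 127), 11 in mural-like (3 to 103, 51 to 141), 0 in neutrophil-like (0 to 2, 0 to 87), 9 in satellite-like (3 to 73, 12 to 99), 21 in Schwann-like (2 to 24, 22 to 62) and 10 in tenocyte-like cells (2 to 43, 0 to 94). In neutrophil-like cells the median log2 difference over all genes was 0.29 with TMM and -0.03 without it, and in T and NK-like cells 0.03 with TMM, 0.13 without it and 0.15 with DESeq2. Il17ra in neutrophil-like cells differed by -0.29 with TMM and -0.60 without it. Il17f and Il17rc had too few counts in lymphocytes for a test.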

Other observations

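Over 47 sums of 1 library and 1 cell class (14 classes), the genes whose log2(CPM + 10) followed Il17a most closely, among 21225 genes with at least 20 UMIs, were Scrt1 (Pearson r = 0.989), Gm9961 (0.982), Kcnc1 (0.977), Foxp3 (0.971), Il12rb1 (0.966), Podnl1 (0.966), Ccr4 (0.965) and Il13 (0.964). The sums share libraries and depth, and the likeness rests on the T and NK-like sums of the OSA-4W libraries, since most other sums hold few UMIs of these genes. Foxp3, the regulatory T cell factor, was found in none of the 31 cells with Il17a, so a high r over sums does not place 2 genes in the same cells. Il17rc was followed most closely by Cibar1 (0.883), Sfr1 (0.882), Spats2l (0.880), Dnajb1 (0.867), Neo1 (0.852), Cttn (0.850), Plcd1 (0.844) and Rbfox2 (0.843).

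ILC2-like cells, innate lymphocytes of the type 2 programme, numbered 1 in the control and 16, 15 and 11 in OSA-4W 1, 2 and 3, and held no Il17a, Il17f, Il23r, Ccr6 or Trdc UMI. Regulatory T-like cells numbered 0 in the control and 4, 4 and 14. Epithelial-like cells had the highest Il17rc of any class, at 46.8 CPM in the control and 82.4, 236 and 69.9 CPM in the OSA-4W libraries, but rested on 8 cells and on 27, 1 and 50 cells and were not tested.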
